A study of Rattus norvegicus with 21 samples.

Results

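Broad unmethylated domains are stretches of 1.5 kb or more of the rat genome in which every measured window of 250 bp carried methylation on under 10% of its reads. They were chosen from the 6 libraries of unlesioned dorsal striatum alone: a domain is a run of 6 or more directly consecutive 250 bp tiles on chromosomes 1 to 20, each with 2 or more CpGs in all 21 libraries and a mean unlesioned level under 10%. The level of a tile is the percentage of its CpG reads that read as methylated. This rule gave 899 domains made of 6199 tiles, which is 4.43% of the 140054 tiles measured in every library and 12.9% of the 47957 tiles under 10%. Levels in unlesioned striatum therefore describe the members and are given with no test.

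All animals were wild type Sprague Dawley rats of 120 days, and the tissue was dorsal striatum, the brain region that receives the dopamine fibres of the substantia nigra. One group of 6 samples is labelled unlesioned and given saline (the labels do not say whether it came from other animals or the other hemisphere). A group of 8 had 6-OHDA, a toxin taken up by catecholamine neurons, injected into the left medial forebrain bundle and then received saline. The remaining 7 had the same lesion and, after 3 weeks of recovery, daily L-DOPA (levodopa, the precursor of dopamine) at 6 mg/kg for 7 days, a regime that produces abnormal movements, with tissue taken 3 h after the last dose. The question of the design is how dopamine loss and levodopa-induced dyskinesia change DNA methylation. The labels do not name the animal behind each sample, so every p-value speaks of the spread among the samples as deposited, which may in part be technical. The tissue holds all striatal cell types together, so a shift in the mix of cells and a shift within cells cannot be told apart.

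In mammalian DNA most CpGs are methylated, and the exceptions gather in CpG islands, the CpG-rich sequence at the start of many genes. Proteins with CXXC domains bind unmethylated CpGs there and recruit histone methyltransferases whose mark on lysine 4 of histone H3 repels the de novo DNA methyltransferases. Islands that run on for longer, often called methylation valleys or canyons, are known for lying over developmental transcription factor genes, many of which carry Polycomb marks in tissues where they are silent.

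No rat genome of the build used here (rn5) was at hand, so genes were placed by matching the spacing of CpGs in RefSeq promoter windows (build GRCr8, 250 bases before to 50 after the start) to the spacing of CpGs in the libraries. Of 33469 windows, 5395 matched on 10 or more CpGs and 99.6% of these fell on the chromosome that RefSeq gives. Of the 5372 windows on that chromosome, 453 were placed in the orientation opposite to RefSeq. Positions along the chromosome were not compared between the builds. The upstream letters of 7 genes are shown, those of the 3 immediate early genes with a start in a domain and of the 4 longest domains with a placed start: CpGs in capitals were measured in all 21 libraries, and the highest unlesioned mean of any of them was 7.45%. Positions are the first and last capital CpG in rn5. The immediate early genes, which neurons switch on within minutes of a stimulus, are Fosb, Egr4 and Nr4a1.
Fosb, chr1:81487911-81488145, minus strand: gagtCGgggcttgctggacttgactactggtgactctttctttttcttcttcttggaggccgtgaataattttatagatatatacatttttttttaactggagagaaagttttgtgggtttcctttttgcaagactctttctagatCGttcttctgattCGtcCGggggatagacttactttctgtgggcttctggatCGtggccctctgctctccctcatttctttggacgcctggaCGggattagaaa
Egr4, chr4:181872538-181872742, minus strand: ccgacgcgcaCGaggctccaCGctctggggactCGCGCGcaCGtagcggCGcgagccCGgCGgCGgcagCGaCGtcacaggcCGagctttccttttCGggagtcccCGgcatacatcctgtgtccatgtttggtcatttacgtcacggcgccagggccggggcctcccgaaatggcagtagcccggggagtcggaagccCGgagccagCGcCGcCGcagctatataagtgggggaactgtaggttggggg
Nr4a1, chr7:140713032-140713121, plus strand: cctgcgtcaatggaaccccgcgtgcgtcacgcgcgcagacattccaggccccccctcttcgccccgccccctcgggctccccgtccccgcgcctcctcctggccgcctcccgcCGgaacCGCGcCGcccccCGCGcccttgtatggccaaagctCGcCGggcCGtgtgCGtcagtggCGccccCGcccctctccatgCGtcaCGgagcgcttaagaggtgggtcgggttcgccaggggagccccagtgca
Ubtf, chr10:90051421-90051468, minus strand: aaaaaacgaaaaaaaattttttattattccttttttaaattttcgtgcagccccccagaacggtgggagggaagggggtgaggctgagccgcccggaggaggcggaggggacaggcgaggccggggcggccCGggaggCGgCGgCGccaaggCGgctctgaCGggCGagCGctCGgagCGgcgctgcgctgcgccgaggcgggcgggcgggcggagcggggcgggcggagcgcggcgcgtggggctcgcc
Pou4f1, chr15:92118395-92118540, minus strand: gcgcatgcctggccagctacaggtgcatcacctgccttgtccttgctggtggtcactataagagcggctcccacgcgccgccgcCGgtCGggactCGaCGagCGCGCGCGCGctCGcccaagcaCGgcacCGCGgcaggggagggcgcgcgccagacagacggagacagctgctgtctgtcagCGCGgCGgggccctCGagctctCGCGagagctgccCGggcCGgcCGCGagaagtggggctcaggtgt
Tsc22d2, chr2:168025289-168025493, plus strand: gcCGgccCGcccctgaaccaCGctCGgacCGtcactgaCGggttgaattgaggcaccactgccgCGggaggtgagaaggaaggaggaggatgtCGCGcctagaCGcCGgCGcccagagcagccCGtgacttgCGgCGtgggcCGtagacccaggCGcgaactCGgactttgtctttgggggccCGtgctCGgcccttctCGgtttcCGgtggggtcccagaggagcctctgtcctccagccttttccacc
Cux1, chr12:25151215-25151300, plus strand: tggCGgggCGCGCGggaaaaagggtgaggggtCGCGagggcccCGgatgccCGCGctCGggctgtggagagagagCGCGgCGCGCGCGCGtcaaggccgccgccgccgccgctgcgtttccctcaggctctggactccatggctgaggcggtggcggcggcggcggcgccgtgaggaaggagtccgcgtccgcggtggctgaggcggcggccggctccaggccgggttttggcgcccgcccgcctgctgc

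The capital CpGs of Fosb, which codes for a partner of Jun in the AP-1 factor and is long known for its induction by L-DOPA, averaged 0.547% ± 0.304 (SD, n = 6) in unlesioned striatum, 0.951% ± 0.388 (n = 8) after the lesion with saline and 0.583% ± 0.224 (n = 7) with L-DOPA. Those of Egr4, a zinc finger factor of the early growth response family, averaged 2.08% ± 2.19, 1.32% ± 0.52 and 1.08% ± 0.554 in the same order. Nr4a1, an orphan nuclear receptor, stood at 1.14% ± 0.563, 1.39% ± 0.667 and 1.46% ± 1.47. Pou4f1, a POU homeobox factor of sensory neurons, had 1.27% ± 0.584, 0.84% ± 0.448 and 0.964% ± 0.313 over 23 CpGs. Ubtf stood at 4.31% ± 8.50 in unlesioned striatum, an SD above the mean, and at 1.11% ± 2.19 and 0.928% ± 0.898 in the lesioned groups, over 10 CpGs, the highest value of any of them in any library being 23.5%. Tsc22d2 and the homeobox gene Cux1 had unlesioned levels of 1.19% ± 0.464 and 1.39% ± 1.09. The letters differ in CpG content: 8 CpGs stand in the printed bases of Fosb against 41 in those of Cux1.

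Across libraries 5.96e+07 to 1.64e+08 CpG read counts were listed, with at least 10 reads behind every listed cytosine. Summed over CpGs, a domain rested on a median of 5648 to 15328 read counts per library and a domain tile on 668 to 1772. A read that covers several CpGs is counted at each of them, so the number of separate reads is lower. By the library numbers in the sample files, 2 series exist: 6 lesioned saline and 3 L-DOPA libraries form the first, and all unlesioned libraries are in the second. Contrasts of the lesioned groups are therefore also given within each series. In 3 libraries (unlesioned 1, L-DOPA 3 and 7) reads were more concentrated on a few sites, a fact known from earlier work on these files.

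Most domains were close to the shortest length the rule allows. Of the 899, 453 had 6 tiles and 257 had 7, together 79.0%, and the 899 covered 1549.75 kb in all. The longest, chr11:37901751-37905500, had 15 tiles (3750 bp). Below it stood 3 domains of 13 tiles: one over Ubtf, the RNA polymerase I factor that keeps ribosomal genes open, and the others at chr1:125924501-125927750 and chr20:48110751-48114000 with no placed start. Domains of 12 tiles held Tsc22d2, Pou4f1 and Cux1. Among the 16 domains of 11 tiles were those of Hmga1, Bcl2l11, Kdm2a, Egr4, Sox11, Epha7, Sphk1, Trim8, Igf1r and the long non-coding RNA Fendrr. Kdm2a itself codes for a demethylase that binds unmethylated CpGs through a CXXC domain.

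**Figure D1:**
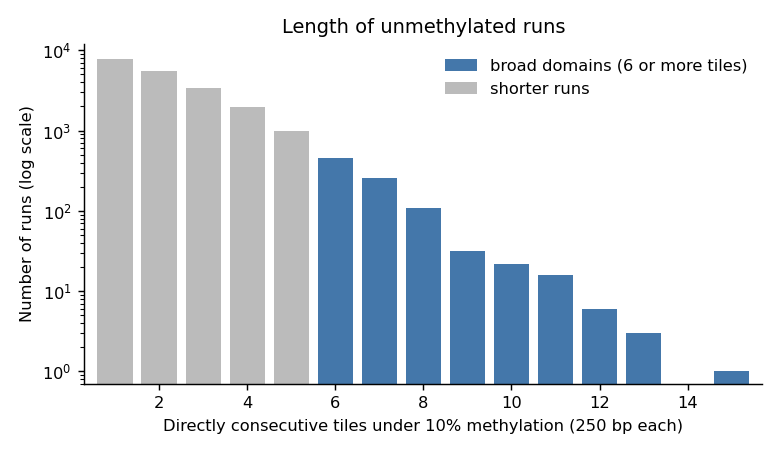
Number of runs (log axis) against the number of directly consecutive 250 bp tiles under 10% methylation in unlesioned striatum. Runs of 1 tile numbered 7724, runs of 5 tiles 980 and the domains of 6 tiles 453, with a single run of 15 tiles at the far end.

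Runs of 5 tiles, just outside the rule, averaged 2.11% with 13.5 CpGs per tile, and those of 6 tiles, just inside it, 2.11% with 14.0. At the 10% limit the nearest tiles inside stood at 9.97% (in the domain of Grem1, a BMP antagonist, and at chr15:55484751-55485000) and 9.95% (domain of Icmt). The nearest bordering tiles outside stood at 10.1%, beside the domains of Foxd2 and Aldh1a2 and at chr12:19162501-19162750. Only 32 of the 6199 member tiles were at 9% to 10%.

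Domains were denser in CpGs than other tiles. They held 86797 listed CpGs, or 9.47% of the 916748 in all measured tiles, with 14.0 per tile against 11.1 in shorter unmethylated runs and 3.96 in tiles at or over 10%. Cecr2, which codes for a chromatin remodelling subunit, had the densest domain at 27.5 CpGs per tile, followed by chr5:153757501-153759500 (27.3) and Ssbp3 (27.2). At the other end, chr1:270577501-270579000 had 5.00 per tile. Each chromosome had 16 (chromosome 20) to 101 (chromosome 1) domains, and 8.02% to 16.7% of its unmethylated tiles lay in them.

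Within the rule's 10% ceiling the domains sat far below it. Their unlesioned level, the mean over tiles, ran from 0.841% to 6.88% with a median of 1.93%, and 488 of 899 lay between 1% and 2%. The lowest in unlesioned striatum was the domain of Smarca5, the ATPase of the ISWI chromatin remodellers, at 0.841% ± 0.365 (SD, n = 6). It was not the lowest in the lesioned groups, with 1.39% ± 0.616 (saline) and 1.73% ± 1.32 (L-DOPA). Other domains were lower there, among them chr6:82158501-82160250 at 1.06% and 1.24% and that of Ssbp3 at 1.20% and 1.18%. The highest in unlesioned striatum was chr1:132417501-132419250 at 6.88% ± 1.84, with 5.43 CpGs per tile and a highest library of 10.3%. In the lesioned groups it stood at 5.52% (saline) and 5.08% (L-DOPA), below chr8:94889251-94890750 at 6.52% and 6.57%. Sparse domains were less empty: with domains split into 4 classes of rising CpG density the unlesioned mean went 2.55%, 2.17%, 2.05% and 1.87%, and the lesioned saline mean 2.51%, 2.10%, 2.00% and 1.84%. Length showed no such order, with means of 2.11% to 2.26% over 4 length classes. Over the 899 domains Spearman's rho between level and CpGs per tile was -0.333, a description, since both come from the same reads.

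At single CpGs the picture was the same. The 71754 domain CpGs measured in all 21 libraries averaged 1.80% with a median of 0.823%, and 89.5% were under 5%. Only 54 reached 20% in unlesioned striatum, of which 33 lay in end tiles and 34 were also at 20% or more in the lesioned libraries. Of these, 3 averaged about 99% beside neighbours near 0: position 90196707 of chromosome 1 (mean over 21 libraries 99.4%, lowest library 96.5%), position 128280709 of chromosome 7 (99.4%, lowest 96.8%) and position 37202517 of chromosome 20 in the domain of Man1a1 (99.1%, lowest 94.8%). All of them were listed on the reverse strand alone, and the other CpGs of their tiles had medians of 0.381%, 0.498% and 0.324%. At position 64633124 of chromosome 15, in the domain of the diacylglycerol kinase gene Dgkh, the forward strand read 39.5% and the reverse strand 0.296%.

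Domain ends carried more methylation than domain centres in every library. In unlesioned striatum end tiles averaged 2.73% ± 0.181 (SD, n = 6) and the central tile or pair 1.81%, a difference of 0.928 percentage points, and the end was above the centre in 687 of 899 domains. The 15 lesioned libraries, which the rule did not use, gave 0.896 points in 8 saline and 0.899 points in 7 L-DOPA libraries, with ends above centres in 683 and 672 domains. The size of the excess depends on the limit that defines a domain: in unlesioned striatum it was 0.501 points with a limit of 5% and 1.26 with 15%. Over all 21 libraries the difference ran from 0.706 to 1.04 points. The step was short: from the end inward the first 3 tiles stood at 2.73%, 2.06% and 1.84%. The highest tile of a domain was an end tile in 59.8% of domains, while 29.0% of domain tiles are end tiles.

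**Figure D2:**
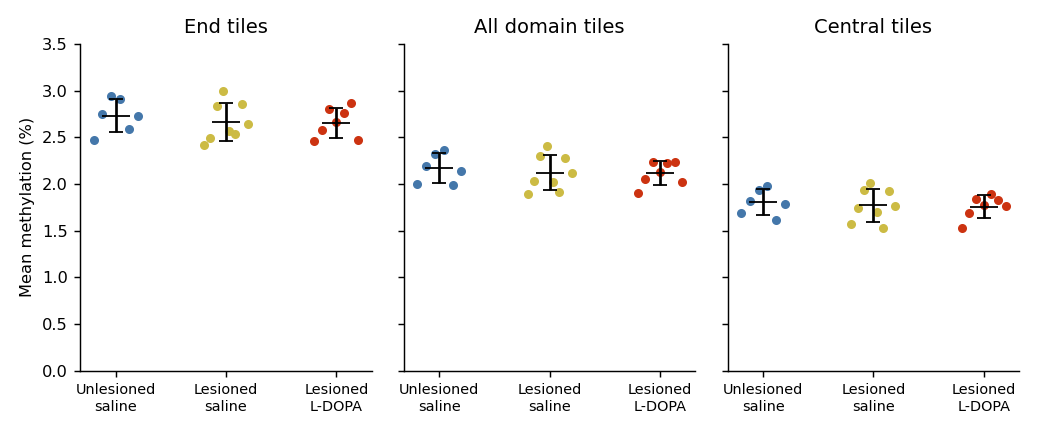
Mean methylation in percent of end tiles, all tiles and central tiles of the 899 domains, 1 point per library, with group mean and SD. End tiles lie between 2.42% and 3.00% and central tiles between 1.53% and 2.02%, and the 3 groups overlap in each panel.

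End tiles also held fewer CpGs (8.75 against 17.3 per tile in the centre) and fewer read counts (library medians of 352.5 to 955.5 against 945 to 2557). Within 4 classes of CpG number (2 to 4, 5 to 9, 10 to 14, 15 or more) the order held in all 3 groups. The classes are ranges, and ends and centres were not matched for CpG number within them. Among tiles with 10 to 14 CpGs, ends averaged 2.63% ± 0.14 and centres 1.88% ± 0.151 in unlesioned striatum, and 2.55% ± 0.218 against 1.85% ± 0.179 after the lesion with saline. With 15 or more CpGs the unlesioned values were 2.01% and 1.55%. With 2 to 4 CpGs they were 3.04% ± 0.235 and 2.71% ± 0.279, a gap close to their SDs.

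Single domains varied widely around this average. The largest excess of ends over centre in the lesioned libraries was at chr16:20184001-20186000, with 9.15% at the ends and 1.58% in the centre. Prkce, the gene of protein kinase C epsilon, followed with 8.66% against 1.40%, and Sowahb with 8.73% against 1.66%. Egr4 had 5.96% against 2.00%, and Fosb 2.70% against 1.53%. The last tile of Egr4, with 2 CpGs, stood at 9.06% ± 5.68 with saline and 8.20% ± 3.51 with L-DOPA. Its first tile, with 11 CpGs, stood at 3.08% and 3.47%. The last tile of Fosb also held only 2 CpGs. Pou4f1 had the opposite order in the lesioned libraries, 2.34% at the ends against 3.33% in the centre. In unlesioned striatum its end tiles stood at 4.63% ± 3.10 and 2.55% ± 0.793 and its central pair at 3.97% ± 1.06 and 2.74% ± 0.318, so the order was not seen there.

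Few domain ends were met by a methylated neighbour that could be measured. Of 1798 ends, 1704 (94.8%) bordered a tile not measured in all 21 libraries, and in 1132 of these no library listed a CpG. Where such a neighbour had reads in all 6 unlesioned libraries (283 ends), 227 were under 10%, none reached 50%, and the median was 3.91%. The other 94 ends bordered a measured tile at or over 10%, with a median of 14.8% and 66 of them at 10% to 20%. Beyond that tile the next one averaged 28.2% ± 2.96 (20 tiles). Further out, CpGs at 250 to 500 bp averaged 7.24% and those at 4750 to 5000 bp 19.5% in unlesioned striatum. Even there 69.7% of measured CpGs were under 10%, and 17.0% were at 50% or more. Lengths are therefore those of the measured run, and distances count from its last tile.

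**Figure D3:**
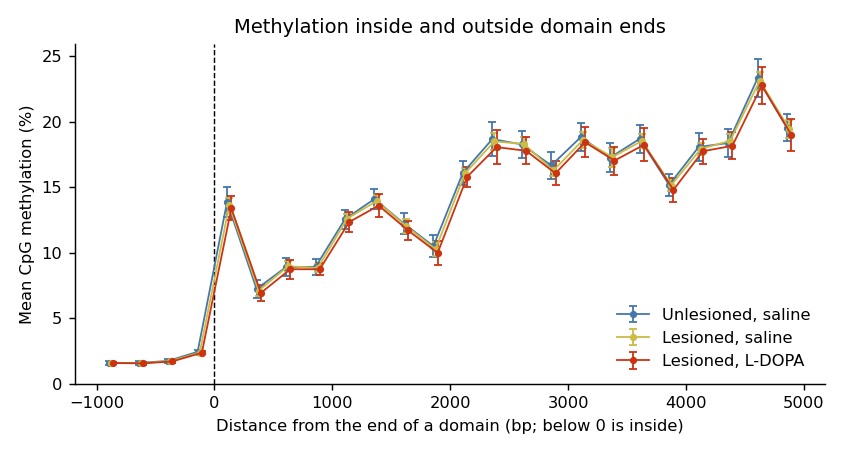
Mean methylation in percent of CpGs measured in all 21 libraries against distance from a domain end in bp, inside (below 0) and outside, by group, with SD over libraries. Inside the mean stays between 1.56% and 2.44%; the first 250 bp outside hold 611 CpGs at 13.9% in unlesioned striatum, many in tiles that ended the run by being at or over 10%, and by 5000 bp the mean is near 20%.

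Domains seldom lay side by side. Of 879 neighbouring pairs on a chromosome, 21 were 10 kb apart or less. The single group of 3 lay at chr10:73182751-73196250, with 21 tiles and unlesioned levels of 3.96%, 5.77% and 3.32%. A start could be placed for none of the 3.

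Start sites of 498 genes fell in 437 domains (48.6%), and 58 of these domains held more than 1 gene. Placement needs 10 matched CpGs, so CpG-poor starts and starts in unlisted sequence are missing, and the remaining 462 domains are not shown to lack a gene. Of the placed starts, 37.7% fell in central tiles, which are 24.0% of domain tiles, and 8.41% in end tiles, which are 29.0%. Central tiles hold 17.3 CpGs and end tiles 8.75, so the placement rule itself favours central tiles, and these shares do not show where starts lie. In the 379 domains with a single gene, the measured unmethylated run reached a median of 691 bp upstream and 972 bp downstream of the start. It was longer downstream in 252 of them (66.5%). Over all domains 94.8% of ends bordered a tile not measured in all 21 libraries. These distances therefore give the reach of measured tiles, and not where methylation rises. Tiles at a placed start are CpG-dense because of the same rule, and levels were lower in denser domains, so the course around the start is a description of the placed starts alone. Unlesioned levels were 1.64% ± 0.145 and 1.63% ± 0.133 in the 250 bp before and after it, where tiles held 18.8 and 19.3 CpGs, and 3.27% ± 0.262 at 1250 to 1500 bp downstream with 10.3 CpGs. The lesioned groups followed the same course.

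**Figure D4:**
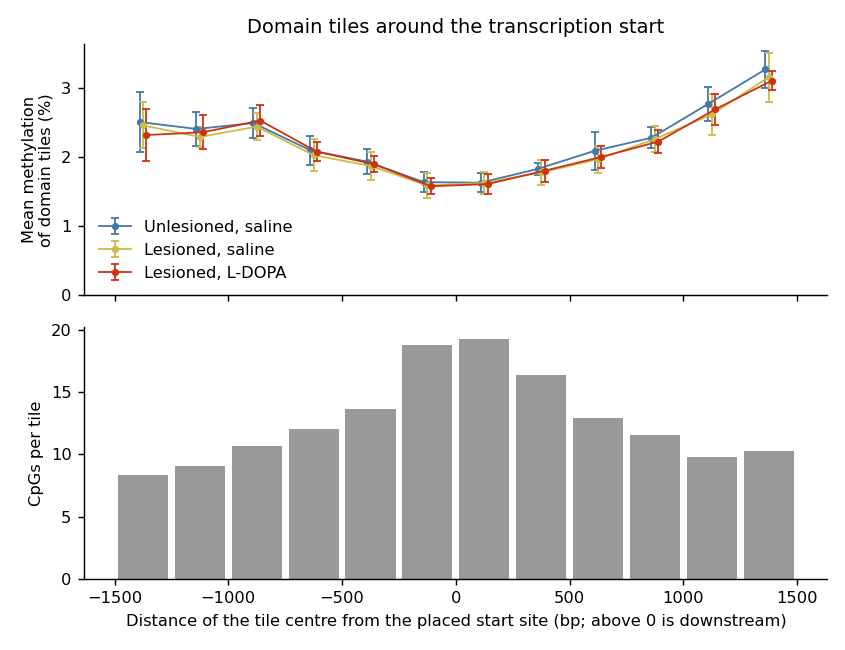
Upper panel: mean methylation in percent of domain tiles against distance of the tile centre from the placed start in bp, for domains of 1 gene, by group, with SD over libraries. Lower panel: CpGs per tile, 19.3 just downstream of the start, where unlesioned methylation was 1.63%; starts were placed only where 10 or more CpGs matched.

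The list of developmental transcription factors held 205 genes, of which only 45 could be placed, so most of the list is not seen here. Of 41 developmental transcription factor genes placed in a measured tile, 15 (36.6%) started in a broad domain, 25 in a shorter unmethylated run and 1, Tbx1, in a tile at or over 10%. Over all 4671 genes placed in measured tiles the share in a domain was 10.7%, and no test was made of this difference. The 15 were Foxc1, Foxd2, Foxd3, Foxo1, Irx2, Lhx4, Msx1, Nkx1-1, Nkx6-1, Nkx6-2, Pax2, Pou4f1, Six5, Sox11 and Sox13. Several of them pattern the early nervous system: Nkx6-1 and Nkx6-2 the ventral neural tube, Pax2 the midbrain border, Foxd3 the neural crest. Their domains averaged 8.13 tiles and 16.9 CpGs per tile, against 6.82 tiles and 14.5 CpGs in the other 422 domains with a placed start. Their level was 2.30% ± 0.239 in unlesioned striatum, 2.11% ± 0.219 with lesion and saline and 2.18% ± 0.22 with L-DOPA, against 1.99%, 1.93% and 1.94% in the others. The genes of the HoxD cluster placed here (Hoxd1, Hoxd3, Hoxd9, Hoxd10, Hoxd11, Hoxd13) all started in shorter runs.

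Of the 9 immediate early genes, 4 could be placed and 3 of them (Fosb, Egr4, Nr4a1) started in a domain, while Npas4 started in a shorter run. Of 12 striatal neuron genes, Drd2, the D2 dopamine receptor, was the single one placed, in a shorter run. The housekeeping genes Tbp and Rpl13a were also in shorter runs. No marker of neurons, astrocytes, oligodendrocytes, microglia or endothelium was placed, so the cell make-up of the samples cannot be read from domains.

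Windows placed in domains, like those placed in shorter runs, held the GC box more often and the TATA box less often than the whole table. The letters GGGCGG, the core of an Sp1 site, occurred on either strand in 82.8% of 559 placed windows in domains, 78.0% of windows in shorter runs and 33.1% of all 33469 windows of the table. TATAAA occurred in 2.33%, 3.94% and 14.2%, and CCAAT in 34.9%, 33.2% and 37.5%. The palindrome TGACGTCA, the full cyclic AMP response element, occurred in 2.15%, 3.40% and 1.83%, and no searched motif contains another. Placed windows hold 10 or more CpGs by construction and the table as a whole does not, so the last figures are not of like sequence. The CpG inside TGACGTCA was measured in all libraries at 5 domain sites, in the windows of Zc3h4, Lrrc8a, Chpf with Tmem198 (a pair of sites) and Rpl13. Group means were under 5% at all 5, the highest unlesioned mean being 1.09% ± 1.40.

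Domain levels lay close together in the 3 groups. Mean domain tile levels in unlesioned libraries were 1.99% at the lowest, 2.17% at the median and 2.37% at the highest. After the lesion with saline they were 1.90%, 2.07% and 2.41%, and with L-DOPA 1.91%, 2.13% and 2.24%. Group means were 2.17% ± 0.158 (n = 6), 2.12% ± 0.188 (n = 8) and 2.12% ± 0.126 (n = 7), and the groups overlapped. L-DOPA minus lesioned saline was -0.00418 points (SE 0.0818), with -0.0302 in the first library series and -0.0401 in the second. Of the 899 domains, 897 were under 10% as a mean over tiles in each of the 21 libraries, and a library had 14 to 133 of the 6199 tiles at or over 10%.

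Across all libraries a library's domain level moved with the level its reads gave on mitochondrial DNA, which ran from 1.12% to 1.49%. Over 21 libraries Pearson's r was 0.716 and Spearman's rho 0.675, with r of 0.637 and rho of 0.367 among the 9 libraries of the first series, r of 0.776 and rho of 0.769 among the 12 of the second, and r of 0.718 without the 2 libraries farthest from the median. These coefficients describe libraries that share their conversion step and are given with no test. The part of incomplete bisulfite conversion in levels of about 2% was not tested.

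Between L-DOPA and lesioned saline no domain passed the test. A quasi-binomial logistic model on methylated and unmethylated reads, fitted to all 97899 segments tested (runs of tiles of one class), called 0 of 899 domains at an adjusted p under 0.05, and 0% of segments as background. The smallest adjusted p of a domain was 0.99982. At an unadjusted p under 0.05 it counted 39 domains (4.34%), 32 higher and 7 lower with L-DOPA, where the background over all segments was 3.24%, with 1.21% higher and 2.03% lower. Shorter unmethylated runs gave 4.40%, or 862 of 19579, and also leaned upward, with 510 higher and 352 lower. By tile, 0 of 6199 passed the adjusted threshold and 326 (5.26%) the unadjusted one, against a background of 0% and 3.71%. End tiles gave 4.73% and central tiles 5.91%. The limma test on log2 odds called 0 domains and counted 11 (1.22%) at an unadjusted p under 0.05, against 3.64% of all segments. A model with no allowance for spread beyond that of independent counts called 215 of 899 domains, against 19604 of 97899 segments. The median dispersion of a domain was 4.74 where independent counts would give 1.

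The differences themselves were small. Over the 899 domains, with all reads of a domain pooled in each library, L-DOPA minus saline ran from -0.662 to 0.535 points, the middle 95% from -0.309 to 0.346, with a median SE of 0.152. Higher values with L-DOPA were seen in 493 of 899 domains (54.8%), against 51.4% of shorter unmethylated runs and 39.1% of all segments. The median was 0.02 points, against 0.0103 in shorter unmethylated runs and -0.32 over all segments, most of which are more methylated. With means over tiles in place of pooled reads, 462 of 899 domains were higher and the median was 0.00613 points.

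The domain of Ankrd13a, which codes for a ubiquitin-binding ankyrin protein, had the smallest p among those higher with L-DOPA. Its pooled level was 0.926% at the lowest, 1.33% at the median and 1.59% at the highest in unlesioned libraries, 0.735%, 1.15% and 2.22% with lesion and saline, and 1.40%, 1.79% and 2.10% with L-DOPA. All 7 L-DOPA libraries lay above the saline median, and 1 saline library lay above them all. The difference was 0.535 points (SE 0.185, quasi-binomial p = 0.00124, adjusted p = 0.99982), with 0.662 and 0.468 in the 2 library series. Next came chr8:94886251-94887750 at 0.514 points (SE 0.165), Ier5l, an immediate early response gene, at 0.277 (SE 0.109), Fbxo30, an F-box subunit of a ubiquitin ligase, at 0.421 (SE 0.147), and chr10:35486251-35487750 at 0.382 (SE 0.141). In 3 of these all 7 L-DOPA libraries exceeded the saline median, and in Fbxo30 6 did. These domains, like that of Ankrd13a, were picked by p from the same libraries. Such counts therefore follow in part from the choice and add no support. The value of Fbxo30 was 0.828 in the first series and -0.026 in the second.

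Among domains lower with L-DOPA the smallest p belonged to chr7:75569251-75571000, at -0.319 points (SE 0.117). Phlda2, an imprinted growth suppressor of the placenta, had the largest negative difference, -0.662 points (SE 0.214, quasi-binomial p = 0.0127, adjusted p = 0.99982). Its levels were 2.29%, 2.82% and 3.78% at the lowest, median and highest in unlesioned libraries, 2.63%, 2.97% and 4.33% with saline, and 2.34%, 2.46% and 2.82% with L-DOPA. L-DOPA libraries overlapped the lower saline libraries. Its 2 end tiles stood at 7.97% and 6.68% in unlesioned striatum while the 4 inner tiles were at 1.05% to 2.74%. The others were chr17:73595751-73597250 at -0.61, chr2:204923251-204924750 at -0.291 and chr4:164530501-164532000 at -0.493 points.

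**Figure D5:**
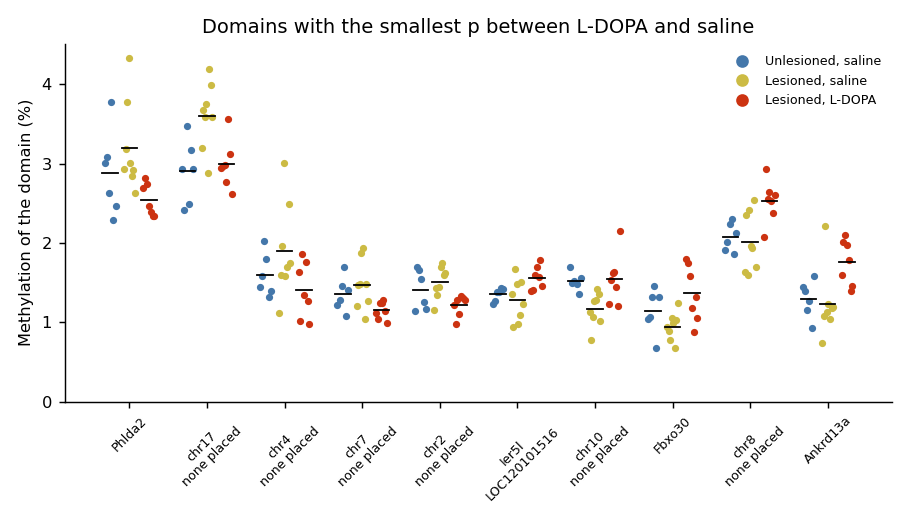
Methylation in percent, all reads of a domain pooled, in the 5 domains per direction with the smallest p between L-DOPA and lesioned saline, 1 point per library with group means as lines. In none of them do the lesioned groups separate: the saline libraries of Ankrd13a reach 2.22% against 1.40% to 2.10% with L-DOPA.

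The immediate early gene domains did not pass the test. Fosb had pooled levels of 0.86%, 1.23% and 1.44% at the lowest, median and highest in unlesioned libraries, 0.897%, 1.41% and 1.77% with saline, and 0.949%, 1.19% and 1.47% with L-DOPA. Its difference was -0.209 points (SE 0.121, quasi-binomial p = 0.105, adjusted p = 0.99982), with -0.193 and -0.241 in the 2 library series. Egr4 had 2.06%, 2.22% and 3.26%, then 2.05%, 2.26% and 2.60%, then 2.03%, 2.39% and 3.02%, a difference of 0.116 (SE 0.133), with 0.119 and 0.242 in the library series. Nr4a1 had 0.566%, 1.41% and 1.86%, then 0.556%, 1.86% and 3.13%, then 0.563%, 1.54% and 3.40%, a difference of -0.181 (SE 0.496) on a median of 2841 read counts per library. Its sign differed between the library series, -0.399 in the first and 0.362 in the second. The groups overlapped in all 3 genes. Of the 15 developmental factor domains, 0 reached an unadjusted p under 0.05.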

How the data were processed

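The 21 libraries hold bisulfite-converted DNA of dorsal striatum. Per the labels' protocols and design text, 50 bp single-end reads were trimmed with Trim Galore 0.3.7, aligned to rn5 with Bismark 0.13.0, sorted and de-duplicated with SAMtools 0.1.19 and tabulated with methylKit 0.9.2. The deposited tables give a read count (coverage) and the percent of C and of T at each cytosine with at least 10 reads. These counts multiplied by the deposited percent give methylated reads, whole in 100% of rows. Cytosines under 10 reads are not listed, so a tile with few reads counts as not measured and can end a run.

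The 2 strands of a CpG were joined, and reads were summed in 250 bp tiles and in segments (runs of tiles of one class). Segments and tiles were each tested with a quasi-binomial logistic model over the 3 groups, with limma-style moderated dispersion of at least 1, an F-test and Benjamini-Hochberg adjustment over all rows with 0.1% to 99.9% pooled methylation (numpy 2.4.6, scipy 1.17.1, limma 3.58.1 in R 4.3.3). It was tested on simulated data. A printed difference is between means over libraries, while the model weights libraries by their reads. An alternative used limma on log2 odds with an offset of 0.5.

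The members and lists were chosen with earlier results of these data known. Domains are named by length, level, CpG density, edge minus centre, spread and p, 3 to 8 each. The plan named no gene without an rn5 annotation; placing promoters by CpG spacing (at least 10 CpGs, 3 more than any other placement, none listed that the letters lack, same chromosome) was added after the data were seen, and every gene name rests on it. Genes of 11-tile domains and of single CpGs or tiles were named after their values were seen. No unlesioned contrast was tested, since those libraries set the rule.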

Additional observations from a re-analysis of the deposited data

Results flagged for a closer look

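Of 129 sets of libraries (1 quantity in 1 group), 15 had a highest or lowest library standing apart from the others by more than Dixon's 95% limit, where chance gives about 1 in 20, or 6.45. Unlesioned library 1, one of those with concentrated reads, had the smallest gap between ends and centre of its group, 0.776 points with the next at 0.931. Domain levels below are means over tiles.

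In unlesioned striatum, Cux1 stood at 5.04% in library 4 (next 1.68%), and its last tile, with 5 CpGs, averaged 8.15% ± 16.3 over the 6 libraries. Cecr2 stood at 3.91% in library 3 (next 1.71%), Fosb at 2.69% (next 1.85%) and Ier5l at 1.99% (next 1.60%) in library 4, and chr12:19162751-19164250 at 4.60% in library 1, below the next at 6.23%. Fosb pooled over all its reads ranged from 0.86% to 1.44% in that group.

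After the lesion with saline, library 4 stood apart at Cux1 (2.82%, next 1.74%) and Ssbp3 (1.97%, next 1.33%), library 3 at Ankrd13a (3.59%, next 1.75%) and chr6:82158501-82160250 (1.84%, next 1.09%), and library 8 at Fbxo30 (2.47%, next 1.60%). With L-DOPA, library 4 stood apart at chr1:125924501-125927750 (2.25%, next 1.75%), library 6 at chr17:1077251-1080250 (2.85%, next 1.98%) and chr16:20184001-20186000 (5.75%, next 3.95%), and library 2 at chr1:132417501-132419250 (6.73%, next 5.04%).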

How the results depend on the processing

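The number of domains follows the rule: 1879 domains of 11099 tiles with at least 5 tiles, 189 of 1682 with at least 8, and 465 of 3131 with at least 4 CpGs per tile. Setting the level by lesioned saline libraries gave 908 domains, of which 877 were identical to the main ones. With a limit of 5% the mean tile level was 1.87% (unlesioned), 1.84% (lesioned saline) and 1.84% (L-DOPA), and with 15% it was 2.35% unlesioned and 2.30% with L-DOPA. With 4 CpGs per tile the L-DOPA mean was 1.98%. Ends exceeded centres under every alternative run. In the order unlesioned, lesioned saline, L-DOPA, the difference was 0.501, 0.51 and 0.5257 points with a 5% limit, 1.26, 1.22 and 1.21 with 15%, 1.08, 1.05 and 1.03 with at least 8 tiles, and 0.815, 0.771 and 0.768 with 4 CpGs per tile. With 20 reads per CpG it was 0.843 and 0.799 in the saline groups.

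Between L-DOPA and lesioned saline, 0 domains and 0 tiles passed the adjusted threshold when each library was left out in turn. Without overdispersion 215 of 899 domains passed, against 19604 of 97899 segments, and 1126 of 6199 domain tiles, against 26019 of all 140024 tiles. An unadjusted threshold gave 39 domains (4.34%, against 3.24% of segments) and 326 tiles (5.26%, against 3.71% of all tiles). With limma the unadjusted counts were 11 domains (1.22%, against 3.64%) and 294 tiles (4.74%, against 3.93%). L-DOPA minus saline changed sign for Fbxo30 (-0.026) and Nr4a1 (0.362) in the second library series, for Egr4 without the 3 concentrated libraries (-0.00504), and for Nr4a1 without L-DOPA replicate 1 (0.018, the range over libraries left out being -0.455 to 0.018). The cause was not tested. With the replicate number as a block in the 2 lesioned groups, 0 domains and 0 tiles passed. There 35 domains (3.89%) had an unadjusted p under 0.05, against 3.15% of all segments. Same-numbered libraries did not deviate together (r from -0.0571 to 0.0642 over 7 pairs, 1 library correlating best with its own number), so the numbers are not taken as pairs.

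Requiring 15 matched CpGs, an alternative added after the data were seen, left 383 domains with a placed start. There 13 of 33 developmental factors lay in domains (39.4%). Requiring 20 left 285 domains and 8 of 19 factors (42.1%). The share over all genes placed in measured tiles rose too, from 10.66% with 10 CpGs to 12.05% with 15 and 14.47% with 20. The median SE of a domain's difference was 0.152 points and the median dispersion 4.74, where independent counts would give 1. Counts at CpGs of the same read are not independent, and how much of the dispersion is spread between libraries was not tested. A difference of 0.514 points with an SE of 0.165 did not pass the adjusted threshold either.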

Other observations

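The domain of chr1:125924501-125927750, one of the longest, had its highest tile in the middle: the sixth tile stood at 4.08% ± 0.798 in unlesioned striatum between neighbours at 1.02% ± 0.233 and 1.38% ± 0.737. That tile holds position 125925839, at 43.4% ± 13.4 in unlesioned, 32.1% ± 9.43 in lesioned saline and 33.4% ± 9.32 in L-DOPA libraries, while the other CpGs of the tile had a median of 0.158%. Its reverse strand read 36.7% over 21 libraries and its forward strand, listed in 7 libraries, 7.39%.

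The highest domain of chromosome 8, chr8:94889251-94890750 (6.46% ± 0.4657 unlesioned), lies close to chr8:94886251-94887750 (2.27% ± 0.218), which was among those with the smallest p between L-DOPA and saline. The first holds 5.33 CpGs per tile and the second 16.0.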
